A study of Schmidtea mediterranea with 177 samples.

Results

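SMEDWI-1 (dd_Smed_v4_659_0_1), BRULI (dd_Smed_v4_2592_0_1), KHD-1 (dd_Smed_v4_294_0_1) and HMB-1 (dd_Smed_v4_1095_0_1) are 4 transcripts that are used as markers of planarian neoblasts. They were taken by name from the 26560 transcripts counted in this experiment, and they were followed in single cells that were sorted as non-dividing. Each of the 177 cells came from the planarian Schmidtea mediterranea, asexual strain CIW4, starved for 7 to 14 days. The cells were cut from the midline of 10 adjacent regions, numbered from 1 at the head to 10 at the tail, and the pharynx was removed from regions 5 and 6. All cells were gated on Hoechst stain for the DNA content of non-dividing cells, amplified with SmartSeq2 and kept for sequencing because troponin or collagen was found by qRT-PCR. No treatment, age or animal was given for any cell, so the cells of a region and class were treated as 1 sample.

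Neoblasts are the dividing cells of the planarian body and include its stem cells, from which the other cell types arise. SMEDWI-1 encodes a protein of the PIWI family, and its mRNA is the most widely used neoblast marker. BRULI encodes a Bruno-like RNA-binding protein required for neoblast maintenance, KHD-1 a protein with a KH domain, which is an RNA-binding fold, and HMB-1 a high mobility group protein, a kind of chromatin protein. A gate on DNA content removes cells in S, G2 and M phase, but it does not separate neoblasts in G1 from cells that have left the cycle.

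The classes are those of the authors, who took 115 cells for muscle by a principal component analysis and troponin and left 62 as non-muscle. The 4 transcripts were among the 12 that the authors listed for the negative side of their second component (PC2), which they named for neoblast markers. Classes and transcripts were therefore both chosen on these cells, and the contrast of classes and the covariation of the transcripts are given as descriptions with no test. There were 11, 0, 3, 3, 6, 9, 11, 7, 5 and 7 non-muscle cells in regions 1 to 10, and 6 to 23 muscle cells in each region. Muscle cells had a median of 259378 reads (range 19205 to 3884642) and non-muscle cells 304656 (53607 to 2702758). Troponin (TNNI2, dd_Smed_v4_323_0_1), a subunit of the contractile apparatus, was expressed in 115 of 115 muscle cells and 52 of 62 non-muscle cells, with 1630 and 49.9 cpm (the reads of a transcript scaled to 1000000 reads of the cell or sum) in the summed reads. All 12 transcripts of a muscle list were at least 2-fold higher in the muscle sum, and all 12 of an epidermal lineage list at least 2-fold higher in the non-muscle sum. The authors took both lists from these cells, so this is no independent check of the classes.

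All 4 neoblast markers were found in cells of both classes, and muscle cells did not lack any of them. Expression of a transcript in a cell means more than 2 reads of it here. SMEDWI-1 was expressed in 87 of 115 muscle cells, or 75.7% (exact 95% binomial interval 66.8 to 83.2), and in 28 of 62 non-muscle cells, or 45.2% (32.5 to 58.3). It was the only one of the 4 whose intervals for the classes did not overlap with all cells. Without the 20 cells with the most expressed transcripts, of which 17 were non-muscle, the SMEDWI-1 shares were 75.9% of muscle cells (66.9 to 83.5) and 55.6% of the 45 non-muscle cells left (39.997 to 70.4), and their intervals overlapped. BRULI was expressed in 67 muscle cells (58.3%, 48.7 to 67.4) and 29 non-muscle cells (46.8%, 33.98 to 59.9). KHD-1 was near the ceiling, in all but 2 muscle cells (98.3%, 93.9 to 99.8) and all but 1 non-muscle cell (98.4%, 91.3 to 99.96). HMB-1 was expressed in 99 muscle cells (86.1%, 78.4 to 91.8) and 53 non-muscle cells (85.5%, 74.2 to 93.1). Among 15672 transcripts, 2.94% had non-overlapping intervals with the higher share in muscle and 9.34% with the higher share in non-muscle cells. These intervals cover counting error only, since amplified reads are not independent molecules and cells are not replicates.

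The order of the classes for SMEDWI-1 was the same at equal depth. After each cell was thinned to 50000 reads, which left out 5 muscle cells and 0 non-muscle cells, SMEDWI-1 was expressed in 77 of 110 muscle cells (70%) and 26 of 62 non-muscle cells (41.9%). The order also held within each of the 3 ranges of cell numbers in the labels, called blocks A, B and C here, whose meaning the labels do not state. The shares in muscle and non-muscle cells were 74.5% and 31.3% in block A, 75% and 29.4% in block B, and 77.8% and 62.1% in block C. The intervals did not overlap in block A and overlapped in blocks B and C. No background share over all transcripts is given within a block, so whether block A is unusual is not known. For KHD-1 the share after thinning was 92.7% in muscle, below its share with all reads, and 98.4% in non-muscle cells.

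The levels of SMEDWI-1 were split, with many cells at 0 and many at high levels. Its level in single muscle cells ran from 0 to 3970 cpm with a median of 469.2. In single non-muscle cells it ran from 0 to 4464 cpm with a median of 3.41. The upper ends of both classes overlapped: 29 of 115 muscle cells and 12 of 62 non-muscle cells were above 1000 cpm. Only 6 cells of each class had 1 or 2 reads, and 22 muscle and 28 non-muscle cells had 0. BRULI had medians of 72.3 cpm in muscle and 6.85 cpm in non-muscle cells, and maxima of 2424 and 2994 cpm. KHD-1 had medians of 573.4 and 480.1 cpm, and HMB-1 of 200.2 and 155 cpm. KHD-1 was at 0 in 1 cell of each class, and HMB-1 in 12 muscle and 7 non-muscle cells.

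**Figure D1:**
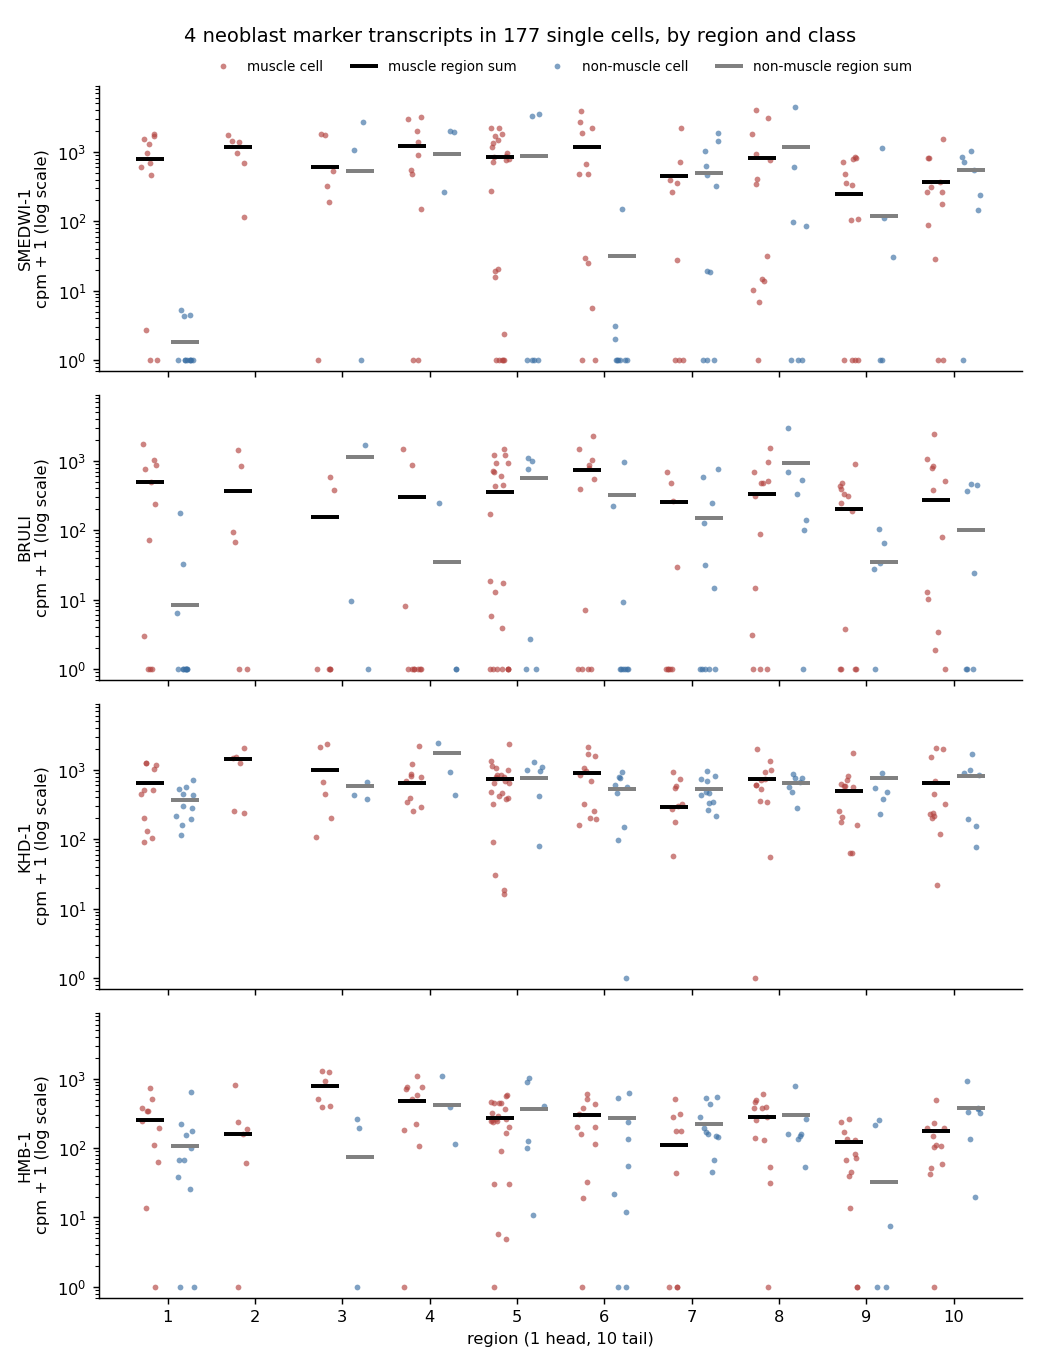
Level of SMEDWI-1, BRULI, KHD-1 and HMB-1 in each cell (points, cpm + 1 on a log axis) against region number, with muscle cells in red and non-muscle cells in blue and the level of the summed reads of a region and class as a bar. SMEDWI-1 and BRULI form a row of cells at 0 and a cloud at high levels, KHD-1 is present in nearly every cell, and region 1 has no non-muscle cell with SMEDWI-1 above 10 cpm.

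When the reads of a class were summed, the 4 transcripts differed little between classes. SMEDWI-1 had 676 cpm in the muscle sum and 567.3 cpm in the non-muscle sum, a log2 ratio of non-muscle over muscle of -0.25. BRULI had 348.7 and 405.5 cpm (log2 ratio 0.22), KHD-1 734 and 650 cpm (-0.18), and HMB-1 250.3 and 247 cpm (-0.02). None of the 4 reached a 2-fold difference in either direction, while 25% of 15672 transcripts were at least 2-fold higher in the muscle sum and 26% in the non-muscle sum. The median log2 ratio over the transcripts tested was -0.05. The 12 transcripts of the epidermal lineage list, picked by the authors from these cells, had log2 ratios of 4.76 or more with a median of 6.18.

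Much of the non-muscle sum came from a single cell. A non-muscle cell of region 8, with 1850257 reads, held 8259 reads of SMEDWI-1 (4464 cpm), which is 51.4% of the SMEDWI-1 reads of its class and 6.53% of the reads of all transcripts. The same cell held 48.2% of the BRULI reads of its class (5540 reads, 2994 cpm) and 20.8% of its HMB-1 reads (1453 reads, 785 cpm). No muscle cell was as dominant, as the largest share was 10.8%, for SMEDWI-1, in a cell of region 6. In an alternative chosen after seeing the data, without the cell of each class with the most reads of the transcript, the log2 ratio was -1.06 for SMEDWI-1, -0.60 for BRULI, -0.15 for KHD-1 and -0.19 for HMB-1. Without region 8 the ratios of SMEDWI-1 and BRULI were -0.97 and -0.77. The BRULI ratio was also negative with all regions under other settings, at -0.70 for the mean of the cells' cpm, -0.65 after thinning to 50000 reads and -0.94 without the 20 cells with the most expressed transcripts. Without region 6 the ratio of SMEDWI-1 was 0.04.

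Along the body, SMEDWI-1 was present in muscle of every region. The summed level in muscle had its lowest value in region 9 at 248 cpm, a median of 798 cpm, and its highest value in region 4 at 1235 cpm. From region 1 to region 10 the share of muscle cells that expressed it was 8 of 11, 6 of 6, 5 of 6, 8 of 10, 16 of 23, 9 of 12, 6 of 9, 10 of 13, 9 of 13 and 10 of 12. Every region of muscle thus had SMEDWI-1 in 66.7% or more of its cells, and none of the 45 pairs of regions had intervals that did not overlap.

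In non-muscle cells the shares of the regions ran more widely, in groups of 3 to 11 cells. SMEDWI-1 was expressed in 0 of 11 non-muscle cells of region 1, which by the exact interval allows a share of up to 28.5%, and in 1 of 9 of region 6. The other non-muscle counts were 2 of 3 in region 3, 3 of 3 in region 4, 2 of 6 in region 5, 7 of 11 in region 7, 4 of 7 in region 8, 3 of 5 in region 9 and 6 of 7 in region 10. Of 36 pairs of regions, 3 had intervals that did not overlap, and no neighbours in the order of the shares did. Such counts of pairs were made for the 4 transcripts only, so in neither class do they have a background share over all transcripts. The summed level in non-muscle cells ran from 0.846 cpm in region 1 over a median of 534.6 cpm to 1182 cpm in region 8.

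Region 1 held 11 cells of each class, and the classes stood apart there more than anywhere else for SMEDWI-1. The 11 non-muscle cells had 3 SMEDWI-1 reads among 3547129, and the 11 muscle cells had 2874 among 3636983. The muscle level, 790.2 cpm, was 934 times the non-muscle level (counting interval 319 to 4533). This interval treats amplified reads as independent and leaves out the spread between cells. BRULI was also low in these non-muscle cells, in 2 of 11 against 7 of 11 muscle cells, with 7.33 and 492.99 cpm in the sums. KHD-1 was expressed in 11 of 11 cells of both classes, at 368 cpm in the non-muscle and 643 cpm in the muscle sum, and HMB-1 in 8 of 11 and 9 of 11, at 107.97 and 251 cpm. The 11 non-muscle cells had 2519 to 11606 cpm (median 9633) for the 12 epidermal lineage transcripts together, against 0 to 471.1 cpm (median 39.2) in the 11 muscle cells. Such sums were not particular to region 1. Their median was 8542 cpm in the non-muscle cells of region 8 and 7694 cpm in those of region 10, where 4 of 7 and 6 of 7 expressed SMEDWI-1. It was 5324 cpm in region 6, where 1 of 9 did. The part of these epidermal lineage transcripts in the low SMEDWI-1 level of region 1 was not tested. Of the non-muscle cells of region 1, 3 were in block A and 8 in block B, and of the muscle cells 8 and 3.

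For the 4 transcripts, as for most of those tested, the classes did not keep 1 order over the regions. Across the 9 regions with both classes, the summed level was higher in non-muscle cells in 4 regions for SMEDWI-1, 3 for BRULI, 5 for KHD-1 and 4 for HMB-1. None of the 4 was higher in the same class in all 9 regions. Over 15672 transcripts, only 1.98% were higher in muscle in each of the 9 regions and 0.217% higher in non-muscle cells. That none of the 4 kept 1 order therefore says little about them. The log2 ratio of non-muscle over muscle had an SD over the 9 regions of 3.54 for SMEDWI-1, 2.66 for BRULI, 0.80 for KHD-1 and 1.47 for HMB-1. Without region 1 the SD over 8 regions was 1.91, 2.04, 0.78 and 1.54 in the same order.

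The groups of 3 non-muscle cells show how few cells stood behind some sums. In region 3 the cells had 0, 2686 and 1065 cpm of SMEDWI-1 and 1713, 0 and 8.52 cpm of BRULI, in the same order. The BRULI sum of 1133 cpm there, the highest of any region and class, came to 99.8% from 1 cell that had no SMEDWI-1 read. In region 4 they had 2021, 1937 and 261 cpm of SMEDWI-1 and 925, 430 and 2415 cpm of KHD-1. The high KHD-1 sum of that region, 1755 cpm, was carried to 83.1% by the cell with 2415 cpm.

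BRULI in muscle ran from 156 cpm in region 3 over a median of 315 cpm to 732 cpm in region 6, and was expressed in 20% (region 4) to 83.3% (region 10) of the cells. KHD-1 in muscle ran from 291 cpm in region 7 over 693 cpm to 1449 cpm in region 2, and HMB-1 from 111.03 cpm in region 7 over 261 cpm to 782 cpm in region 3. All 6 muscle cells of region 3 expressed HMB-1, at 391.8 cpm or more. In non-muscle cells KHD-1 ran from 368 cpm in region 1 over 638 cpm to 1755 cpm in region 4. HMB-1 there ran from 31.8 cpm in region 9 over 274 cpm to 417.9 cpm in region 4, and BRULI from 7.33 cpm in region 1 over 148 cpm to 1133 cpm in region 3. For these 3 transcripts no pair of regions had intervals of the share that did not overlap, in either class.

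**Figure D2:**
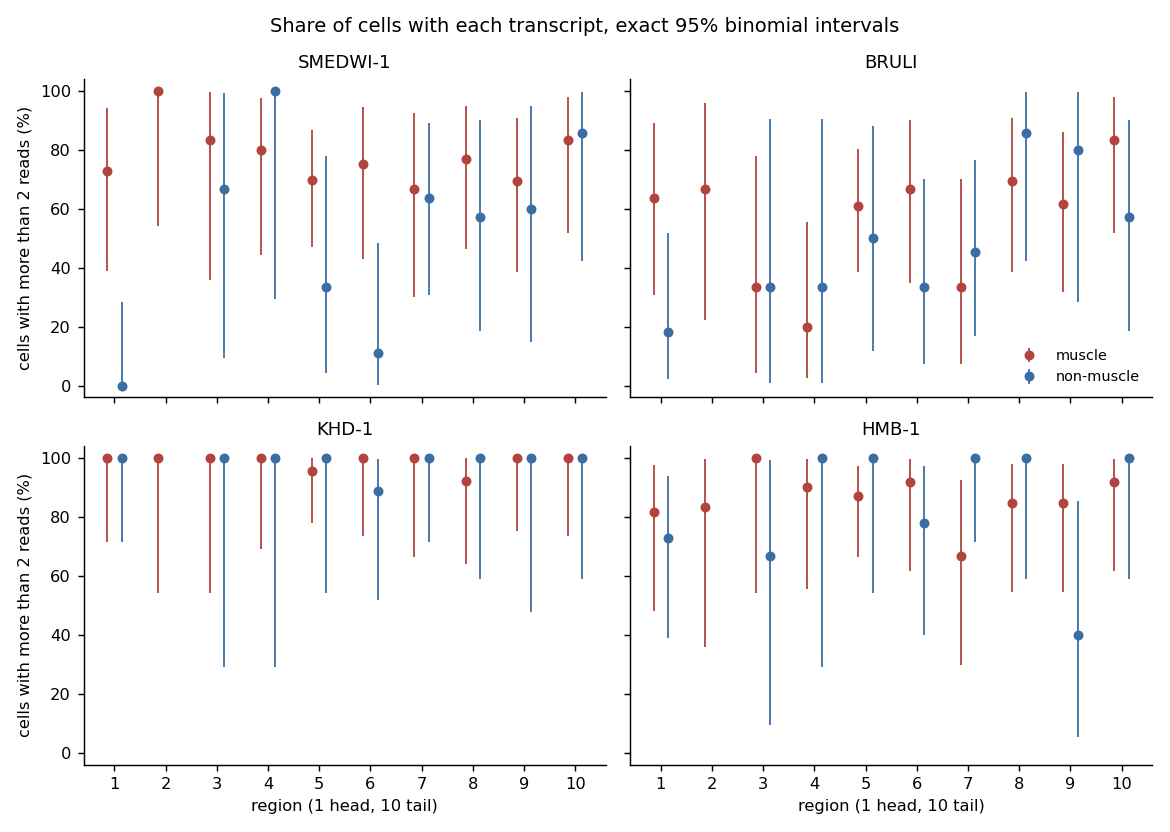
Share of cells with more than 2 reads of each transcript, in percent, by region in muscle (red) and non-muscle (blue) cells, with exact 95% binomial intervals. The SMEDWI-1 share is 72.7% in muscle and 0% in non-muscle cells of region 1 and 75% and 11.1% in region 6, and most other pairs of intervals overlap widely.

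No change along the axis was found for any of the 4 transcripts. A linear trend of log2 level over region number was fitted to the summed reads of each region with edgeR (quasi-likelihood, Benjamini-Hochberg adjustment over all transcripts tested). The SE of a slope was its absolute value divided by the square root of the F value of the edgeR test. In muscle the slope of SMEDWI-1 was -0.11 per region (SE 0.07, 10 sums, edgeR p = 0.139, adjusted p = 1.00). In non-muscle cells it was 0.18 (SE 0.25, 9 sums, edgeR p = 0.492, adjusted p = 1.00). The slopes of BRULI were -0.0011 (SE 0.08) in muscle and -0.10 (SE 0.25) in non-muscle cells. KHD-1 had slopes of -0.04 (SE 0.06) and 0.19 (SE 0.17), and HMB-1 of -0.11 (SE 0.09) and 0.14 (SE 0.18). With edgeR, 0 of the 4 passed the adjusted threshold in either class, and 0 passed at an unadjusted p under 0.05.

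Hardly any transcript passed these tests, and on simulated data more of the calls were false than the nominal rate in muscle and for the difference between classes. The background was 0.0147% of 13570 transcripts in muscle (2 called) and 0.0375% of 13349 in non-muscle cells (5 called), so a count of 0 among 4 says little. At an unadjusted edgeR p under 0.05, 5.17% of the transcripts passed in muscle and 7.42% in non-muscle cells. In 64 alternative fits of the 4 transcripts in muscle, the lowest adjusted p was 0.720, and in 56 in non-muscle cells it was 0.734, with DESeq2 and limma among them. For each of the 4 transcripts the SE was larger in non-muscle cells than in muscle. Leaving out region 1 moved the non-muscle slope of SMEDWI-1 from 0.18 to 0.02, and leaving out region 3 moved that of BRULI from -0.10 to 0.46.

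The difference of the slopes between classes was tested in 1 model over 19 sums. It was 0.30 (SE 0.24) for SMEDWI-1, -0.06 (SE 0.25) for BRULI, 0.23 (SE 0.14) for KHD-1 and 0.25 (SE 0.18) for HMB-1, non-muscle minus muscle. The adjusted p-values of edgeR were 0.931, 1.00, 0.803 and 0.894. Of 15672 transcripts 0 passed, which is 0%, while 1237 had an unadjusted edgeR p under 0.05, DESeq2 called 607 and limma 0. The slopes of the 4 transcripts are thus not shown to differ between classes. Over the 12 transcripts of the neoblast side of PC2, 0 passed in either class or for the difference. Of these 12, 9 had a negative slope in muscle (median -0.05) and 9 a positive slope in non-muscle cells (median 0.18), beside medians over all transcripts tested of 0.03 and 0.02. The share of each sign over all transcripts was not computed, and the signs were also uneven in other lists. In the muscle list 10 of 12 slopes were positive in muscle and 7 of 10 negative in non-muscle cells. On the other side of PC2 these counts were 8 of 12 and 8 of 11, and in the epidermal lineage list 5 of 8 and 8 of 12. The signs are thus not read as a trend along the axis.

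**Figure D3:**
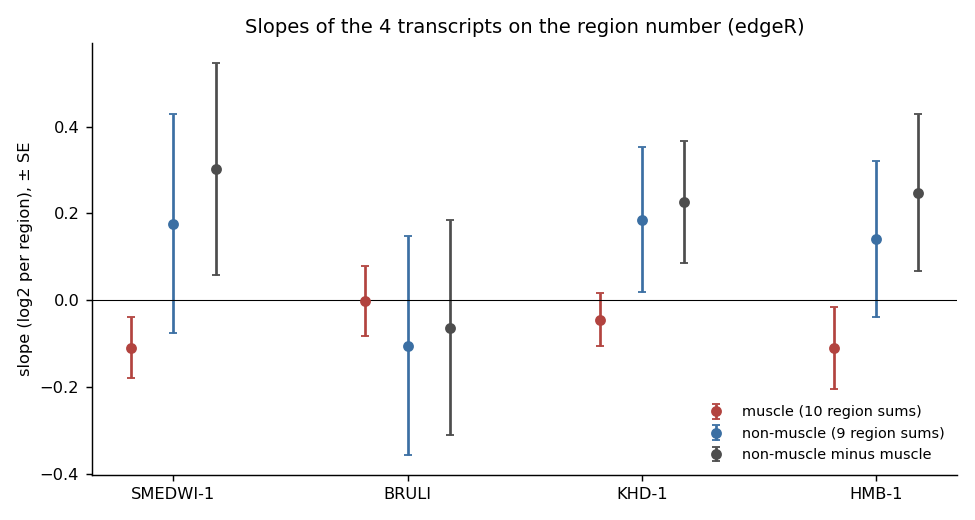
Trend of each transcript over region number, in log2 units per region, in muscle (red), in non-muscle cells (blue) and as the difference (grey). Bars show the SE, computed from the slope and the F value of its edgeR test. None of the slopes passed the test, and the SE is at most 0.09 in muscle and up to 0.25 in non-muscle cells.

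The 4 transcripts occurred together in many cells. All 4 were expressed in 59 of 115 muscle cells (51.3%) and 16 of 62 non-muscle cells (25.8%). The single shares of SMEDWI-1 and BRULI were also lower in non-muscle cells (45.2% and 46.8%) than in muscle cells (75.7% and 58.3%). Counts expected from the single shares were not computed, so a class difference in joint expression beyond them is not shown. In muscle 28 cells had 3 of them, 20 had 2, 6 had 1 and 2 had none, and in non-muscle cells the counts were 21, 20, 4 and 1. After thinning to 50000 reads, 45 of 110 muscle cells (40.9%) and 14 of 62 non-muscle cells (22.6%) had all 4. In region 1, 6 of 11 muscle and 0 of 11 non-muscle cells had all 4.

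SMEDWI-1 and BRULI, the pair that was absent from the most cells, were more often found together in muscle cells. Their single shares were also higher there, at 75.7% of muscle and 45.2% of non-muscle cells for SMEDWI-1 and 58.3% and 46.8% for BRULI. The part of these single shares in the overlap was not tested. Of the 67 muscle cells with BRULI, 63 also had SMEDWI-1 (94.03% of the BRULI cells and 72.4% of the SMEDWI-1 cells). Of the 29 non-muscle cells with BRULI, 16 had SMEDWI-1 (55.2% of the BRULI cells and 57.1% of the SMEDWI-1 cells), and 13 had BRULI without SMEDWI-1, against 4 in muscle. All 115 cells with SMEDWI-1 and all 96 with BRULI expressed KHD-1, which was expressed in 174 of 177 cells in any case. HMB-1 was expressed in all but 7 of the 115 cells with SMEDWI-1 (93.9%) and in 44 of the other 62 cells.

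The levels of the 4 transcripts covaried from cell to cell, with values between 0.25 and 0.42. Pearson's r of ln(cpm + 1) over 177 cells was highest for SMEDWI-1 with HMB-1 (0.42) and with BRULI (0.42). It was 0.40 for KHD-1 with HMB-1, 0.34 for SMEDWI-1 with KHD-1, 0.29 for BRULI with KHD-1 and 0.25 for BRULI with HMB-1. The mean over the 6 pairs was 0.353 over all cells, 0.365 within muscle cells and 0.325 within non-muscle cells. The pairs differed in where they were strongest: SMEDWI-1 with BRULI had 0.49 in muscle and 0.24 in non-muscle cells, and SMEDWI-1 with HMB-1 had 0.35 and 0.55.

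The points of these correlations are cells that share regions, number blocks and a common scaling to total reads, and the transcripts were chosen by the authors because they define a component of these cells, so no p is given. The mean over pairs was 0.347 after each cell was centred on its class and region and 0.337 after thinning. It was 0.290 in block A, 0.262 in block B and 0.516 in block C. Over all cells the pair of KHD-1 and HMB-1 differed most between blocks, with 0.20 in A, 0.09 in B and 0.75 in C. Within muscle cells the mean over pairs was 0.29, 0.16 and 0.62 in the blocks, and BRULI with HMB-1 differed most, with 0.27, -0.35 and 0.47. Correlations of the 4 transcripts with the log of a cell's total reads were small in muscle, from 0.04 to 0.09, and ran from -0.11 to 0.28 in non-muscle cells.

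**Figure D4:**
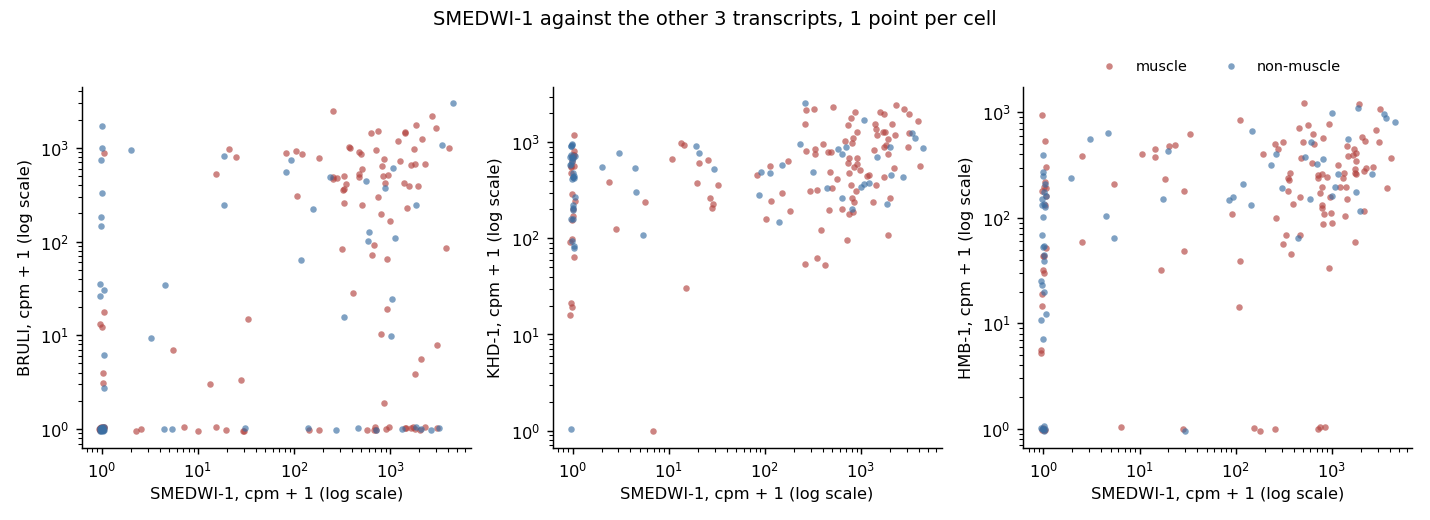
SMEDWI-1 against BRULI, KHD-1 and HMB-1 in single muscle (red) and non-muscle (blue) cells, both axes cpm + 1 on a log scale, with points moved by up to 6% so that cells at 0 can be seen. Pearson's r over 177 cells is 0.42, 0.34 and 0.42, and many cells lie on an axis because a transcript has no read.

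The correlation of SMEDWI-1 with the sum of the muscle transcripts had opposite signs in the classes. Within muscle cells, Pearson's r of SMEDWI-1 was -0.45 with troponin and -0.37 with the sum of the 12 muscle transcripts. The 12 include troponin itself, collagens, filamin and a calponin, so the values are not independent. The other 3 transcripts were also negative with the muscle sum in muscle cells, at -0.32 for BRULI, -0.33 for KHD-1 and -0.31 for HMB-1. Within non-muscle cells, SMEDWI-1 had r = 0.61 with the muscle sum and 0.22 with troponin, and BRULI, KHD-1 and HMB-1 had 0.22, 0.08 and 0.32 with the muscle sum. The muscle sum ran from 781 to 98875 cpm in muscle cells (median 16690) and from 4.86 to 13778 cpm in non-muscle cells (median 172). The non-muscle cell with the highest sum, in region 5, had 3307 cpm of SMEDWI-1 and an epidermal lineage sum of 54.02 cpm. A non-muscle cell of region 4 had a muscle sum of 12884 cpm, 1937 cpm of SMEDWI-1 and an epidermal lineage sum of 134 cpm. The part of such cells in r = 0.61 was not tested, and these r were not centred on region. Single transcripts of the muscle list had r from -0.45 to 0.06 in muscle and from -0.06 to 0.66 in non-muscle cells. Levels in cpm are shares of 1 total, the reads of a cell, and the part of that in these values was not tested.

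With the epidermal lineage sum, SMEDWI-1 had r = 0.28 in muscle and -0.31 in non-muscle cells. Of the 12 transcripts of that list, 2 were expressed in 0 of 115 muscle cells, ZFP-1 (a zinc finger protein known from neoblasts and their progeny of the epidermal lineage) and VIL1 (villin, an actin-binding protein). P53, a transcription factor expressed in planarian neoblasts and progenitors of the epidermal lineage, had 435 cpm in the non-muscle sum and 3.49 cpm in the muscle sum, and its r with SMEDWI-1 in non-muscle cells was -0.45. EPB41L2, a protein of the membrane skeleton, had the lowest value of the list there, at -0.59, and the highest value of the list was 0.03. The sum of the list ran from 54.02 to 16079 cpm in non-muscle cells (median 6743) and from 0 to 4154 cpm in muscle cells (median 32.8). The part of these other transcripts in the level of SMEDWI-1 was not tested.

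**Figure D5:**
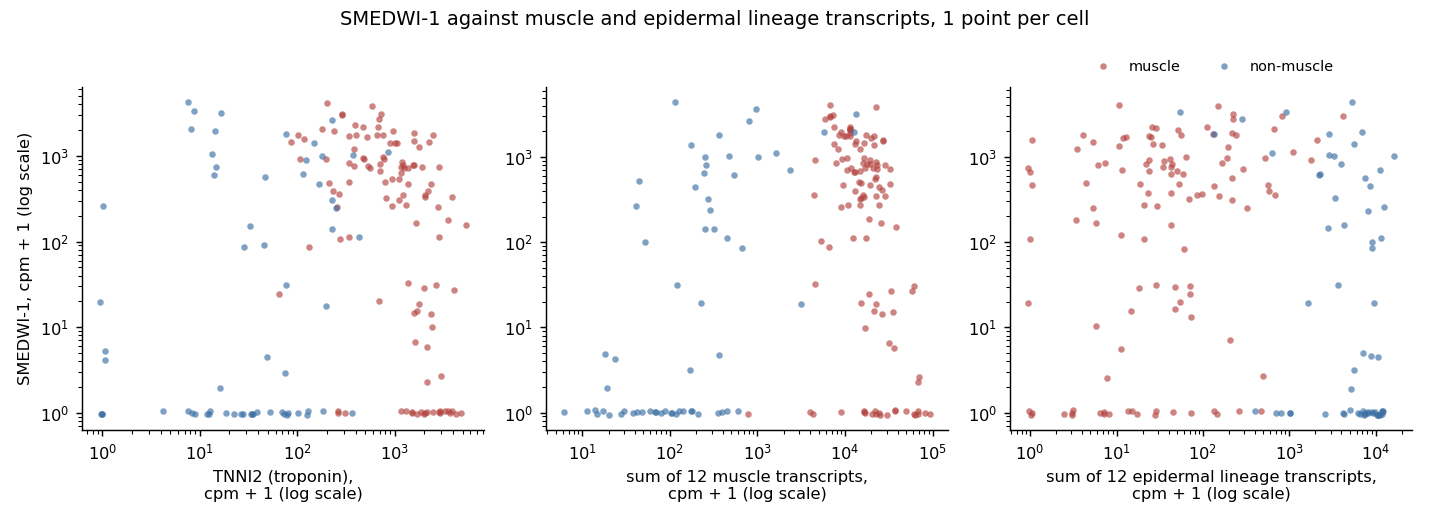
SMEDWI-1 (vertical axis) against troponin, the sum of 12 muscle transcripts (troponin among them) and the sum of 12 epidermal lineage transcripts in single muscle (red) and non-muscle (blue) cells, all as cpm + 1 on log axes, with points moved by up to 6%. In muscle cells SMEDWI-1 falls with troponin (r = -0.45), and in non-muscle cells it is higher where the muscle sum is higher (r = 0.61).

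The transcripts whose pattern over the 177 cells was most like SMEDWI-1 were mostly from the same PC2 list, which the authors drew from these cells. Ranked among 9008 transcripts expressed in at least 18 cells, the first 5 were dd_Smed_v4_1610_0_1, annotated as a beta-actin (r = 0.61), GST-1, a glutathione S-transferase (0.56), JUNLI-1, a c-jun-like factor (0.51), dd_Smed_v4_7227_0_1, which has no name in the study's lists (0.48), and CBFB, annotated as the beta subunit of core-binding factor (0.48). HMB-1 ranked 12th, BRULI 14th and KHD-1 43rd. For BRULI the first was SMEDWI-1, while KHD-1 ranked 33rd and HMB-1 76th. KHD-1 was most like dd_Smed_v4_62_0_1 (r = 0.73), which was expressed in 175 of 177 cells, and for it HMB-1 ranked 58th and BRULI 163rd, with SMEDWI-1 between them. HMB-1 was most like RKHD1, annotated as a protein with a RING finger and KH domains (0.46), and for it SMEDWI-1 ranked 6th, KHD-1 10th and BRULI 125th.

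The mean of the 4 transcripts, each scaled over the cells, was closest to the same beta-actin (r = 0.58), dd_Smed_v4_437_0_1 (0.57), JUNLI-1 (0.57), dd_Smed_v4_62_0_1 (0.56) and dd_Smed_v4_156_0_1 (0.55), of which the 3 without a name were expressed in 173 to 175 cells. The other 8 transcripts of the PC2 list were also expressed in both classes. The beta-actin was expressed in 92 of 115 muscle cells (80%) and 27 of 62 non-muscle cells (43.5%), and GST-1 in 91 (79.1%) and 27 (43.5%), which is close to the shares of SMEDWI-1. JUNLI-1 was expressed in 88 and 46 cells, CBFB in 100 and 45, and XIRP2, annotated as a xin repeat protein that binds actin, in 91 and 44. RKHD1 was expressed in all but 7 muscle cells and in all 62 non-muscle cells, and PC-2, a prohormone convertase, in 25 and 8. Only FBN2, annotated as fibrillin-2, an extracellular matrix protein, was more than 2-fold apart in the sums, at 864 cpm in muscle and 36.7 cpm in non-muscle cells.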

How the data were processed

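The deposited counts are whole-number reads per transcript that were not normalized. The authors sequenced each cell with 80- and 40-base reads, trimmed them with cutadapt, mapped them to dd_Smed_v4 transcripts with bowtie 1 (version: not given in the sources used here), discarded 3 contigs of mitochondrial and ribosomal RNA, summed isotigs, and kept libraries with at least 1000 transcripts of more than 2 reads. Their tables of SCDE ratios and Z-scores between regions of muscle were not used. No strand or transcript length was used, so levels are not compared between transcripts.

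Here cpm was the reads of a transcript per 1000000 counted reads, and expressed means more than 2 reads. Slopes used sums per region and class, transcripts expressed in 3 or more cells of the class, and edgeR 4.0.16 (R 4.3.3, TMM, robust quasi-likelihood, threshold 0.05). The p-values measure only the spread of region sums around a line. DESeq2 1.42.0 and limma 3.58.1 (pseudocount 1) were alternatives. The test was checked on simulated data, where more of its calls were false than the nominal rate in muscle and for the difference, and about the nominal rate in non-muscle cells. No doublet caller was run. No 2 cells had identical counts. The named transcripts were the 4, the rest of their PC2 list and the 5 most like SMEDWI-1 and like the mean of the 4; ZFP-1, VIL1, P53, EPB41L2 and the nearest transcripts of BRULI, KHD-1 and HMB-1 were named after their values were seen. The transcripts and lists were chosen with earlier results of these data known. Sequences of the transcripts were not used here.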

Additional observations from a re-analysis of the deposited data

Results flagged for a closer look

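The sum of the 3 non-muscle cells of region 4 had the highest KHD-1 level of the 9 non-muscle regions, 1755 cpm, and its gap to the next region was 49.5% of the whole range on the scale of log2(cpm + 1). Its cells had 925, 430 and 2415 cpm. About 1 in 20 groups passes this criterion by chance, and 8 groups of region sums were examined.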

How the results depend on the processing

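None of the slopes of SMEDWI-1, BRULI, KHD-1 and HMB-1 passed its threshold under any alternative, but some changed sign, and the cause was not tested. In muscle, the BRULI slope, -0.0011, was 0.00075 without the filter on reads and 0.13 with limma on the mean of log2(cpm + 1). The KHD-1 slope there was 0.014 with the number block as a covariate. The log2 difference of regions 8 to 10 over regions 1 to 3, which is not a slope per region, was 0.032 for BRULI in muscle. In non-muscle cells, the BRULI slope was 0.33 with limma and 0.19 with the number block, and the SMEDWI-1 slope was -0.050 with the number block. The difference of the BRULI slopes was 0.20 with limma, 0.021 with the number block and 0.30 in a paired fit with region as a block over the 9 regions with both classes, which was chosen after seeing the data. With each region left out in turn, the muscle slopes ran from -0.15 to -0.07 for SMEDWI-1, -0.034 to 0.036 for BRULI, -0.079 to 0.0034 for KHD-1 and -0.16 to -0.04 for HMB-1. The non-muscle slope of BRULI ran from -0.27 to 0.46 and the difference of its slopes from -0.28 to 0.49.

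The number of transcripts called over the whole table moved far more. In muscle it was 2, against 1 with library size alone, 158 with DESeq2, 7 without the filter, 18 with limma, 15 with the number block, 4 for regions 8 to 10 against regions 1 to 3, and 0 to 30 with a region left out, 30 without region 10 and 0 without region 1. In non-muscle cells it was 5, against 3, 193, 79, 0 and 164 under the first 5 of these alternatives, and 0 to 15 with a region left out, 15 without region 10 and 0 without region 3 or region 4. For the difference it was 0, against 607 with DESeq2, 6 without the filter, 167 with the number block, 1 with region as a block and 0 to 1 with a region left out. The fits with the number block count several sums of a region as if they were independent.

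The log2 class ratio of BRULI was 0.14, -3.57 and 0.57 within blocks A, B and C. In the same order it was -0.47, -1.20 and 0.12 for SMEDWI-1, -0.18, 0.09 and -0.10 for KHD-1, and -0.13, -0.48 and 0.49 for HMB-1. With a region left out, the ratios ran from -0.97 to 0.04 for SMEDWI-1, -0.77 to 0.46 for BRULI, -0.31 to -0.09 for KHD-1 and -0.34 to 0.14 for HMB-1. After thinning, the share of cells was 92.7% for KHD-1 in muscle and 74.2% for HMB-1 in non-muscle cells. Apart from the BRULI ratio in block B, the 71 other class ratios moved by less than their SD over regions, but that SD is wide enough to hold the changes of sign above and those of BRULI to -0.70 with the mean of the cells' cpm, -0.65 after thinning, -0.94 without the 20 cells with the most expressed transcripts and -0.60 without the cell of each class with the most reads. The other 30 shares and 12 correlations moved by less than the spread they were compared with. Groups of 3 to 23 cells limit every share of a region, and no alternative adds animals.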
